A study of Mus musculus with 34 samples.

Results

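The 9 genes described here, whose transcripts were counted by RNA-seq in cultures of mouse embryonic stem (ES) cells, are markers of the primitive streak, the organiser and the first mesoderm of the gastrulating embryo: T (also written Tbxt), Mixl1, Gsc, Lhx1, Evx1, Mesp1, Tbx6, Cer1 and Kdr. They were chosen by name, and all 9 were found by Ensembl identifier among the 48709 genes counted in a set of 16 libraries and among the 22018 genes counted in a second set of 18. The 16 libraries comprise 4 of Control and 4 of Mta123KO ES cells labelled 2iL and 4 of each genotype labelled 48h. The label 2iL names the self-renewal medium of a Mek inhibitor, a Gsk3 inhibitor and the cytokine LIF. The label 48h names cells taken 48 h after both inhibitors and LIF were removed in N2B27, a serum-free medium that favours neuroectoderm. Which of these cultures each of the 16 libraries came from is in doubt, for the reasons given below. The 18 libraries comprise 3 each of Mta1_del/del, Mta2_KO and Mta3_del/del cells and 3 each of Mta1_flox/flox, Mta2_WT and Mta3_flox/flox cells, all labelled 2iL. Every group is of strain 129/Ola. Mta1, Mta2 and Mta3 are the Metastasis Tumour Antigen subunits of NuRD, a nucleosome remodelling and deacetylase complex. According to the study's methods, the Mta123KO cells were made from Mta1-deleted cells with floxed Mta3 alleles, first by targeting Mta2 and then by expressing Cre, and the labels give the genotype of their controls only as Control. The library numbers of the 16 libraries have the form 1_1, and the first part was read as the ES cell line, so each group holds 2 lines with 2 libraries each. Libraries of a line share their cells, and p-values over libraries may therefore be too small; nothing in the labels says that libraries came from separate cultures, so p-values measure the spread between these libraries. RNA from bulk cultures cannot tell fewer cells of a type from less RNA per cell.

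Gastrulation begins when epiblast cells pass through the primitive streak and become mesoderm and endoderm under Wnt and Nodal signals. T encodes Brachyury, the T-box factor of the streak and notochord, and Mixl1 and Evx1 encode homeodomain factors of the streak. Gsc (Goosecoid) and Lhx1 encode homeodomain factors of the organiser and anterior mesendoderm, and Cer1 (Cerberus) is a secreted antagonist of Nodal, Bmp and Wnt made by anterior visceral endoderm and definitive endoderm. Mesp1 and Tbx6 encode transcription factors of nascent and paraxial mesoderm, and Kdr encodes the Vegf receptor of vascular and blood progenitors. In ES cells the genes of this class are mostly silent or low, and T is a known target of Wnt signalling, which an inhibitor of Gsk3 mimics.

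The 250 bases before the start site are shown for T and Gsc, the members that differed between the culture labels in both genotypes, and for Kdr, which with Gsc differed between Mta123KO and Control. The sequences are RefSeq's on GRCm38.p6, given 5′ to 3′ on the strand of the gene, and capitals mark any of 4 motifs on either strand.
T, chr17:8434173-8434422, plus strand: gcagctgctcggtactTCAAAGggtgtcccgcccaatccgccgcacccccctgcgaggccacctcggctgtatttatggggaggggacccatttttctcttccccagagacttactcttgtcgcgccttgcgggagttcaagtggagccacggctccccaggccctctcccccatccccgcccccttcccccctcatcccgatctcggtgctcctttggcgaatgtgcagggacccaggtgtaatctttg
Gsc, chr12:104473237-104473486, minus strand: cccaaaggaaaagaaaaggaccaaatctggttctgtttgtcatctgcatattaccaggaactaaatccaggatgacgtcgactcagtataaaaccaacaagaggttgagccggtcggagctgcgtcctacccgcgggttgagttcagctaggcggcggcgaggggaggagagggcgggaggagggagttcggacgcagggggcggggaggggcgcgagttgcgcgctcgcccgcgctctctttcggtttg
Kdr, chr5:75978456-75978705, minus strand: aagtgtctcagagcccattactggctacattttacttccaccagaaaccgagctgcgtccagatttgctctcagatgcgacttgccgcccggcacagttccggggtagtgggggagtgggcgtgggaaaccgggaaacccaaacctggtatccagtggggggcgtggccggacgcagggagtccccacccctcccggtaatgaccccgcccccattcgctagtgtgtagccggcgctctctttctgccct
The members are protein-coding genes, and on GRCm38 T spans chr17:8434423-8442496, Gsc chr12:104471209-104473330 and Kdr chr5:75932827-75978458 in GENCODE. The GENCODE starts of Gsc and of Kdr lie inside their RefSeq windows. The motifs searched, on both strands, were CTTTGA (the TCF/LEF core), GGTGTGA (a T-box core), AATCCACA (FOXH1) and TAATCC (bicoid-class homeodomain, the class of Gsc). In the window of T there was a match to CTTTGA on the opposite strand, which begins 234 bases before the start. Mesp1 held 2 matches to it, and the windows of Gsc, Lhx1, Evx1, Tbx6, Cer1 and Kdr held none of the 4. Of all 32851 promoter windows of this length, 13.8% held CTTTGA, 3.33% GGTGTGA, 0.718% AATCCACA and 6.25% TAATCC. Promoters of 8 of the 9 members were matched, and that of Mixl1 was not analysed here. These matches describe the letters only.

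Total counts ran from 37855790 to 57602285 per library in the set of 16 and from 13105820 to 40613585 in the set of 18, and 3 counts in a library of the first set correspond to between 0.0521 and 0.0792 CPM, the counts of a gene scaled to a fixed library total. The deleted genes were checked first. Mta2 lay at 6.71 ± 2.12 CPM (SD, n = 4) in Mta123KO labelled 2iL against 122.6 ± 7.84 in Control and at 8.28 ± 2.01 against 192.1 ± 7.05 labelled 48h, and Mta3 at 18.9 ± 4.68 against 65.1 ± 8.59 and 15.0 ± 5.97 against 40.8 ± 3.0. Mta1, of which counts include exons left in place, lay at 24.6 ± 5.70 against 42.0 ± 6.64 and 17.8 ± 2.32 against 28.5 ± 6.06. In the single mutants Mta1 was at 43.1 ± 4.77 CPM (n = 3) against 84.3 ± 18.4, Mta2 at 10.5 ± 1.35 against 237.4 ± 8.66 and Mta3 at 11.1 ± 1.56 against 66.7 ± 5.30. The culture labels of the 16 libraries are less certain: the names of their deposited files give the opposite culture, and the Control libraries labelled 48h held more transcripts of naive ES cell genes. Esrrb was between 644.0 and 720.9 CPM there and between 43.0 and 73.2 CPM in Control labelled 2iL, and Klf4 between 116.1 and 146.7 against 2.94 to 7.87 CPM. All 5 formative epiblast markers and 3 of 4 neural markers were called lower in Control labelled 48h than labelled 2iL. Pou3f1, of the former, was between 1.07 and 2.00 CPM labelled 48h and between 58.8 and 90.9 CPM labelled 2iL. Groups are therefore named as labelled throughout. Exchanging the labels would exchange the comparisons of Mta123KO with Control and reverse the sign of every difference between the labels.

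Levels of different genes were compared per kilobase of exon (CPM per kb). In Control labelled 2iL, Tbx6 led at 1.18 ± 0.125 CPM per kb (SD, n = 4), above Mixl1 at 0.237 ± 0.0600, and the ranges of these neighbours did not overlap. The next genes, Lhx1 at 0.0919, T at 0.0906, Kdr at 0.0765, Mesp1 at 0.0708 and Gsc at 0.0546 CPM per kb, overlapped each other in their ranges, and Evx1 at 0.0148 and Cer1 at 0.00872 were last; the range of Mixl1 overlapped that of Lhx1. In Control labelled 48h the order differed: Gsc led at 3.54 ± 0.787 CPM per kb, its lowest library at 2.36, followed by T at 0.931 ± 0.173 and Tbx6 at 0.871 ± 0.0823, which overlapped, then by Mixl1 at 0.223, Evx1 at 0.159 and Kdr at 0.154. In Mta123KO labelled 48h, Tbx6 at 1.06 ± 0.210, T at 1.04 ± 0.540 and Gsc at 0.870 ± 0.373 CPM per kb overlapped. Mta123KO labelled 2iL had Tbx6 first at 0.884 ± 0.0575 and Kdr second at 0.371 ± 0.230 CPM per kb, whose range overlapped that of Mixl1 at 0.213 ± 0.0189. The plot of CPM by library shows all 9 genes.

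**Figure D1:**
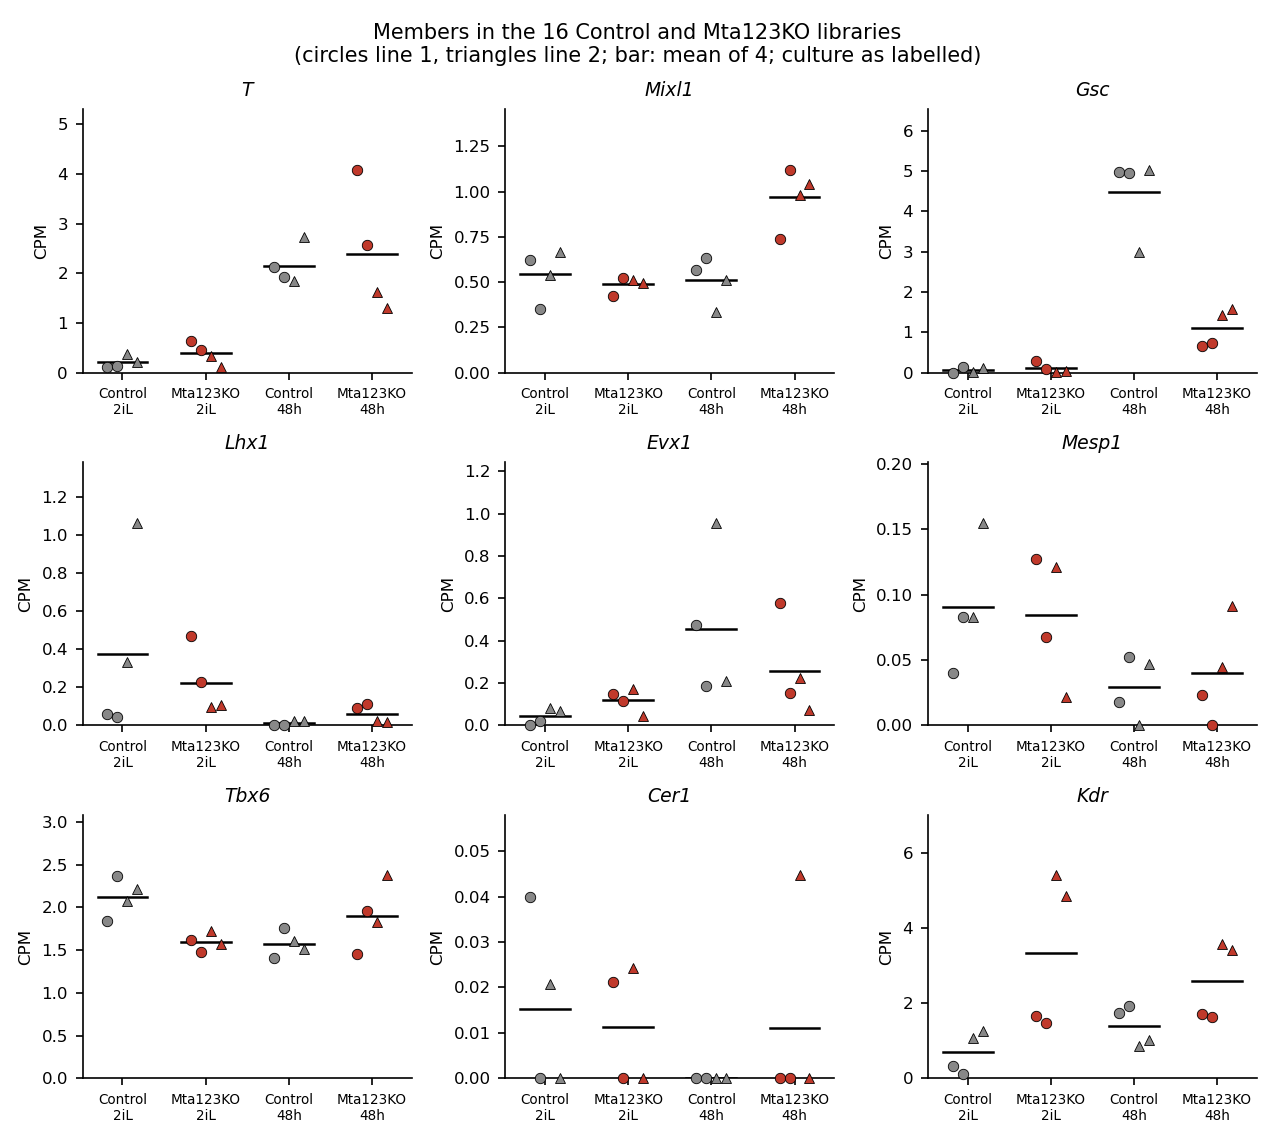
CPM of each member (vertical axes, linear from 0, a scale per gene) in the 16 libraries by genotype and culture label (horizontal axis). Circles are libraries of line 1, triangles of line 2, grey is Control, red is Mta123KO and bars are means of 4; Gsc in Control labelled 48h (2.99 to 5.03 CPM) stands above all other groups, and Kdr in Mta123KO splits by line.

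Among the streak factors, T was low in every library labelled 2iL. Its values in libraries 1_1, 1_2, 2_1 and 2_2 were 0.120, 0.125, 0.373 and 0.222 CPM in Control and 0.637, 0.453, 0.340 and 0.108 CPM in Mta123KO, and the groups overlapped. Labelled 48h, T was at 2.13, 1.92, 1.84 and 2.73 CPM in Control and at 4.09, 2.57, 1.63 and 1.29 CPM in Mta123KO. All 8 libraries labelled 48h lay above all 8 labelled 2iL, and within Mta123KO both libraries of line 1 lay above both of line 2. Mixl1 overlapped among 3 of the groups, with 0.619, 0.353, 0.538 and 0.665 CPM in Control labelled 2iL, 0.424, 0.521, 0.510 and 0.495 CPM in Mta123KO labelled 2iL, and 0.564, 0.631, 0.335 and 0.513 CPM in Control labelled 48h. In Mta123KO labelled 48h it was at 0.739, 1.12, 0.983 and 1.04 CPM, above every library of the other 3 groups. Evx1 had 0, 1, 4 and 3 counts in Control labelled 2iL and 7, 5, 7 and 2 in Mta123KO. Labelled 48h it had 27, 7, 40 and 9 counts in Control and 25, 7, 10 and 4 in Mta123KO. The Control libraries labelled 48h thus lay above those labelled 2iL, and the genotypes overlapped under both labels. Evx1 overlaps the transcript Evx1os on the other strand, and since the strand setting of the counting is not given in the sources used here, reads of the pair cannot be told apart.

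Among the organiser genes, Gsc was near zero in the libraries labelled 2iL, with 0, 7, 1 and 5 counts in Control and 14, 4, 1 and 2 in Mta123KO. Labelled 48h it was at 4.99, 4.94, 2.99 and 5.03 CPM in Control (125 to 283 counts) and at 0.670, 0.725, 1.43 and 1.59 CPM in Mta123KO (29 to 87 counts). No Mta123KO library reached the lowest Control library, and line 1 lay below line 2. Lhx1 ran the other way between the labels. It had 3, 2, 16 and 48 counts in Control labelled 2iL, almost all of them in line 2, and 0, 0, 1 and 1 labelled 48h. In Mta123KO it had 22, 10, 4 and 5 counts labelled 2iL, most in line 1, and 4, 5, 1 and 1 labelled 48h. Cer1 was not detected beyond 2 counts in any of the 16 libraries and had 0 counts in the 4 Control libraries labelled 48h, where 3 counts would be 0.0521 to 0.0792 CPM.

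Among the mesoderm genes, Tbx6 had the steadiest level, at 1.84, 2.37, 2.07 and 2.22 CPM in Control labelled 2iL and 1.61, 1.47, 1.72 and 1.57 CPM in Mta123KO, whose libraries all lay lower. Labelled 48h, Tbx6 was at 1.41, 1.76, 1.60 and 1.52 CPM in Control and 1.46, 1.96, 1.83 and 2.37 CPM in Mta123KO, with overlap. Mesp1 had 0 to 7 counts per library in all 16 libraries and could not be compared at this depth. Kdr was at 0.320, 0.104, 1.08 and 1.26 CPM in Control labelled 2iL and 1.66, 1.47, 5.41 and 4.86 CPM in Mta123KO, where no library overlapped with Control. Labelled 48h it was at 1.75, 1.92, 0.862 and 1.03 CPM in Control and 1.71, 1.63, 3.60 and 3.43 CPM in Mta123KO. Within every one of the 4 groups the libraries of a line lay together: line 2 of Mta123KO was above line 1 under both labels, whereas line 2 of Control was above line 1 labelled 2iL and below it labelled 48h.

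The comparison of Mta123KO with Control asks how gene expression differs without MTA proteins. The paper calls the controls parental in some places, and in another describes one established alongside the parent of the Mta123KO cells. If the control is not the parent itself, differences between separately derived lines cannot be told apart from loss of MTA proteins. It was tested with edgeR's quasi-likelihood test on counts, with Benjamini-Hochberg adjustment over all genes that passed the filter on low counts, and a gene was called when its adjusted p was under 0.05 and its absolute log2 fold change above 1. Labelled 2iL, 5 of the 9 members passed the filter, and 1 was called, Kdr, which was 4.91-fold higher in Mta123KO (log2 fold change 2.30 ± 0.70 SE, edgeR adjusted p = 0.0218). Of 21651 genes tested, 13.2% were called higher and 7.43% lower. Tbx6 was lower by a smaller margin (log2 fold change -0.39 ± 0.14, adjusted p = 0.046), under the fold threshold. T (0.89 ± 0.55, adjusted p = 0.204), Mixl1 (-0.14 ± 0.24) and Lhx1 (-0.68 ± 0.92) did not pass. Kdr passed the filter through the Mta123KO libraries. Its call was lost without Control library 1_1 (log2 fold change 2.06, adjusted p = 0.0615) and when the libraries of a line were summed (2.28, adjusted p = 0.165).

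Labelled 48h, 6 members passed the filter and 1 was called, Gsc, which was 4.02-fold lower in Mta123KO (log2 fold change -2.01 ± 0.32, edgeR adjusted p = 0.000766). Of 21079 genes tested, 14.1% were called higher and 5.93% lower. The call of Gsc held with the libraries of a line summed (-2.02, adjusted p = 0.0395). Mixl1 was 1.91-fold higher (log2 fold change 0.93 ± 0.25, adjusted p = 0.0119), under the fold threshold, and its ranges did not overlap between the genotypes. Kdr (0.91 ± 0.36, adjusted p = 0.0593), T (0.16 ± 0.34, adjusted p = 0.724), Evx1 (-0.85 ± 0.68) and Tbx6 (0.29 ± 0.19) were not called. With the counts scaled to the ERCC spike-ins, RNAs added in a known amount, the median log2 fold change of all genes tested moved from 0.01 to -0.18, and 2611 genes were called higher and 1784 lower in place of 2969 and 1249. Gsc was called with that scaling too (-2.17, adjusted p = 2.33e-06), and T, not called with either, went from 0.16 to -0.01.

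**Figure D2:**
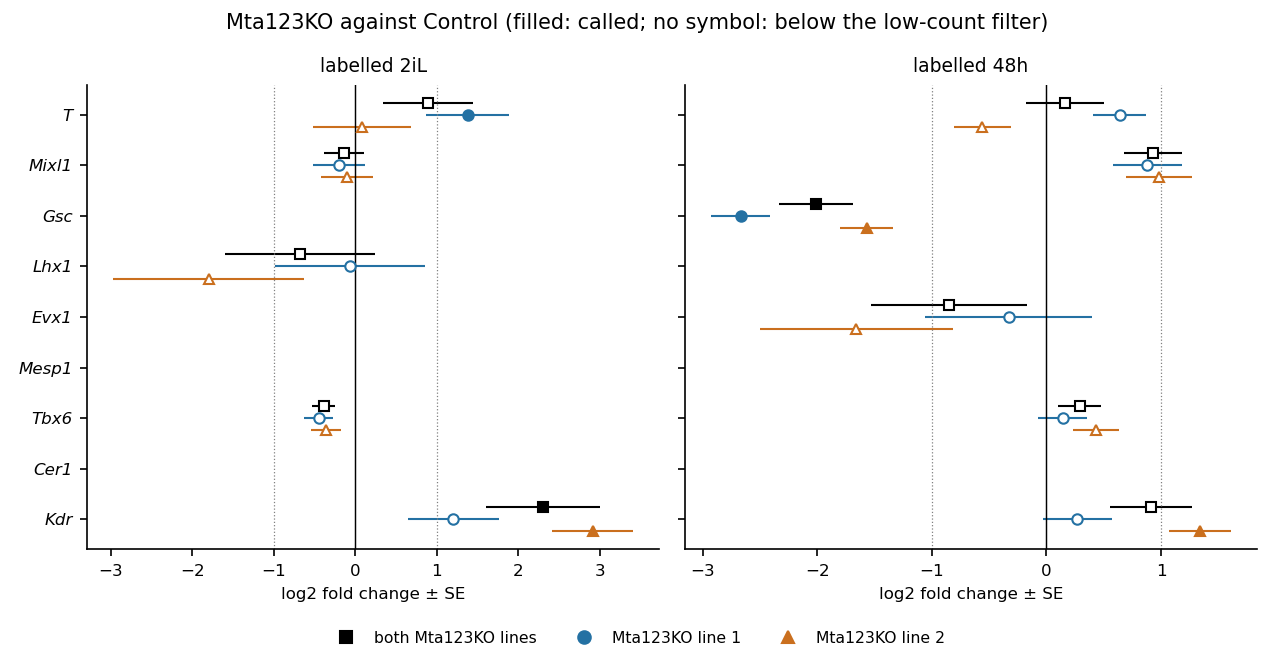
Log2 fold change of Mta123KO against Control (horizontal axes, ± SE) for the members that passed the low-count filter, labelled 2iL (left) and labelled 48h (right). Black squares use both Mta123KO lines, blue circles line 1 and orange triangles line 2; filled symbols were called, and Gsc labelled 48h (-2.67 and -1.57) is called in both lines.

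Each Mta123KO line was also set against all 4 Control libraries. Labelled 2iL, line 1 had 1 member called, T, which was 2.60-fold higher (log2 fold change 1.38 ± 0.51, edgeR adjusted p = 0.0338), where 27.0% of genes tested were called in either direction. The call of T was lost without either library of that line and without Control library 1_1 or 1_2 (adjusted p 0.067 to 0.222). Line 2 had Kdr called, 7.54-fold higher (2.91 ± 0.50, adjusted p = 0.000564), against 20.8% of genes. Kdr in line 1 was at 1.2 ± 0.56 (adjusted p = 0.0844). Labelled 48h, Gsc was called lower in line 1 (-2.67 ± 0.26, adjusted p = 1.13e-05), where 24.9% of genes were called, and in line 2 (-1.57 ± 0.23, adjusted p = 0.000308), where 20.3% were. Line 2 also had Kdr called higher (1.34 ± 0.27, adjusted p = 0.00226), while line 1 gave 0.27 ± 0.30 (adjusted p = 0.45). Mixl1 was at 0.88 ± 0.30 in line 1 and 0.98 ± 0.29 in line 2, both under the fold threshold.

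The lines were then compared with each other. Labelled 2iL, 1 member was called between them, Kdr, which was lower in line 1 (log2 fold change -1.72 ± 0.58, edgeR adjusted p = 0.0411), against 11.4% of genes called in either direction. Leaving out any 1 of the 4 Mta123KO libraries left a line with 1 library, assumed to vary like the other groups, and Kdr was then at -1.81 to -1.64 with an adjusted p of 0.128 to 0.179. Labelled 48h, 3 of the 6 members tested were called, against 9.2% of genes: T was higher in line 1 (1.2 ± 0.28, adjusted p = 0.00955), and Gsc (-1.10 ± 0.30, adjusted p = 0.0204) and Kdr (-1.06 ± 0.33, adjusted p = 0.0342) were lower. With a line reduced to 1 library in the same way, 0 to 1 of these calls was left, and T was lost without library 1_1 (0.83, adjusted p = 0.0997) or 2_2 (1.03, 0.0887).

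The culture labels were compared within each genotype. In Control, 5 members passed the filter and 2 were called, both higher in the libraries labelled 48h. T had a log2 fold change of 3.36 ± 0.32 (edgeR adjusted p = 5.12e-06) and Gsc one of 6.01 ± 0.45 (adjusted p = 7.51e-07). In both genotypes T and Gsc passed the filter through the libraries labelled 48h, and those labelled 2iL alone would not have passed, so a difference was built into their being tested and the number of members called supports nothing. The value for Gsc rests on 0 to 7 counts per Control library labelled 2iL, and its fold depends on how such counts are fitted. Of 21240 genes tested, 10.4% were called higher labelled 48h and 13.2% lower. Tbx6 was lower (-0.42 ± 0.15, adjusted p = 0.0305) under the fold threshold, Kdr was at 1.03 ± 0.56 (adjusted p = 0.136) and Mixl1 at -0.07 ± 0.28. Evx1 and Lhx1 did not pass the filter, and without it Evx1 was called higher (3.40 ± 0.68, adjusted p = 0.000595) and Lhx1 lower (-4.72 ± 1.13, adjusted p = 0.00275) labelled 48h. With spike-in scaling the median of all genes moved from 0.01 to 0.18, 2799 genes were called higher and 2502 lower in place of 2210 and 2805, Kdr was called (1.17, adjusted p = 0.00594) and Mixl1, not called, went from -0.07 to 0.08. In Mta123KO, T (2.62 ± 0.53, adjusted p = 0.00924) and Gsc (3.22 ± 0.64, adjusted p = 0.00841, over 1 to 14 counts per library labelled 2iL) were called higher labelled 48h, 2 of 5 members tested, where 4.84% of 21505 genes were called higher and 4.62% lower. With the libraries of a line summed, T (2.63) and Gsc (3.24) kept their size in Mta123KO and were not called. In that fit 0 of 24445 genes were called by edgeR and 3568 had an unadjusted p under 0.05. The same setting called 2476 genes higher and 3157 lower in Control. The calls of T and Gsc in Mta123KO thus rest on libraries counted singly and were not kept with the line as the unit. Mixl1 was 1.98-fold higher labelled 48h in Mta123KO (0.99 ± 0.20, adjusted p = 0.00985), just under the fold threshold, and Kdr was at -0.37 ± 0.49.

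**Figure D3:**
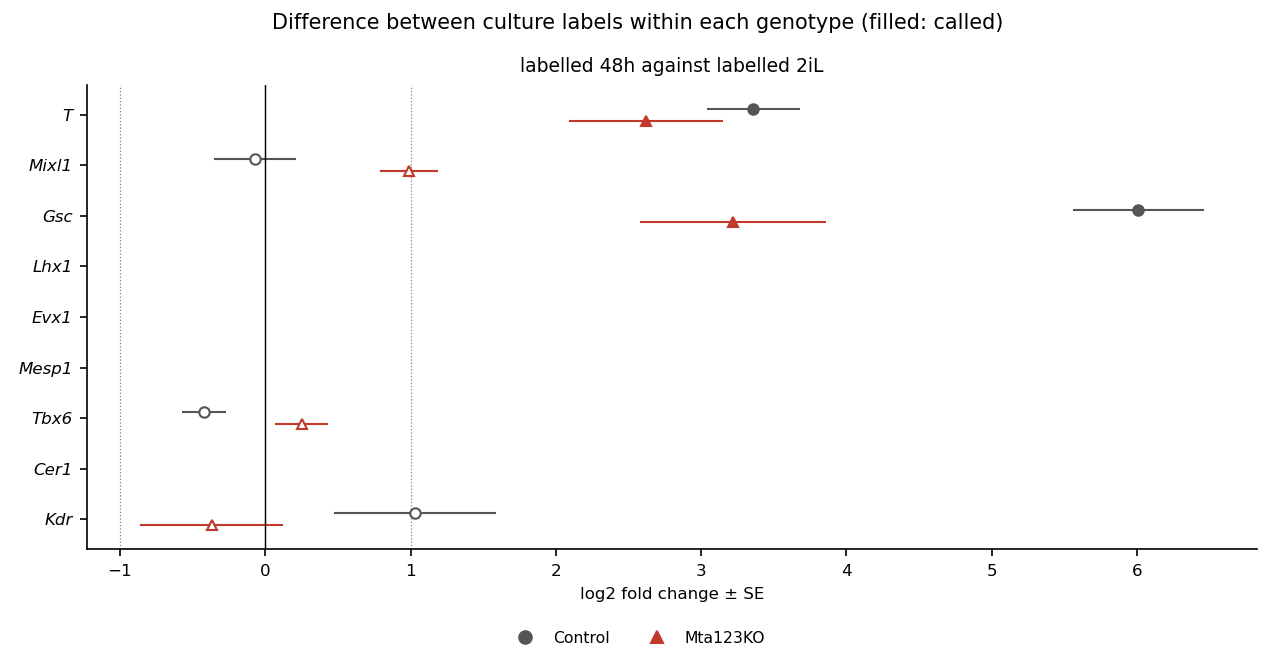
Log2 fold change of libraries labelled 48h against libraries labelled 2iL (horizontal axis, ± SE) for the members that passed the low-count filter in Control (grey circles) and Mta123KO (red triangles). Filled symbols were called: T (3.36 and 2.62) and Gsc (6.01 and 3.22) in both genotypes.

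The difference of these differences was tested as an interaction of genotype and culture label. Of 7 members tested 2 were called, against 13.0% of 22973 genes in either direction. Gsc differed between the labels by less in Mta123KO than in Control (log2 interaction -2.76 ± 0.94, edgeR adjusted p = 0.045), and Mixl1 by more (1.08 ± 0.34, adjusted p = 0.0315). Gsc passed the filter through the libraries labelled 48h, and its value rests on 0 to 14 counts per library labelled 2iL. Gsc was called in 6 and Mixl1 in 10 of 16 fits that each left out 1 library, with adjusted p up to 0.298 and 0.0678, and neither was called with the libraries of a line summed (0.196 and 0.219). Tbx6 was at 0.69 ± 0.22 (adjusted p = 0.0328), under the fold threshold. T was at -0.72 ± 0.65 (adjusted p = 0.475), Kdr at -1.38 ± 0.82, Evx1 at -2.29 ± 1.12 and Lhx1 at 2.85 ± 1.74.

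The single mutants ask whether loss of 1 MTA gene alters expression. The paper speaks of the parent lines of the single mutants, while the label of Mta2_WT gives only wild type. If Mta2_WT is not the parent of Mta2_KO, differences between separately derived lines cannot be told apart from loss of Mta2. In the Mta2_KO comparison 7 members passed the filter and 1 was called, against 11.3% of 15602 genes in either direction. T was at 1.47, 1.17 and 1.88 CPM in Mta2_KO and at 6.62, 7.12 and 7.26 CPM in Mta2_WT, so that no library overlapped and T was 4.69-fold lower (log2 fold change -2.23 ± 0.16, edgeR adjusted p = 4.65e-06). The call was kept in all 6 fits that left out 1 library, and was lost in 1 fit of all 18 libraries (-2.22, adjusted p = 0.0504). Gsc went the other way, at 4.75, 6.31 and 4.29 CPM in Mta2_KO against 2.73, 2.83 and 3.25 CPM in Mta2_WT, a 1.74-fold difference without overlap (0.80 ± 0.16, adjusted p = 0.00331) under the fold threshold. Kdr was at 1.10, 0.643 and 0.906 CPM against 0.403, 0.416 and 0.637 CPM (0.87 ± 0.33, adjusted p = 0.0561). Evx1 was at 0.735, 0.467 and 0.369 CPM against 0.374, 0.182 and 0.127 CPM (1.19 ± 0.49, adjusted p = 0.0711). Cer1 (0.32 ± 0.29), Tbx6 (0.40 ± 0.38) and Mixl1 (-0.17 ± 0.30) were not called.

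**Figure D4:**
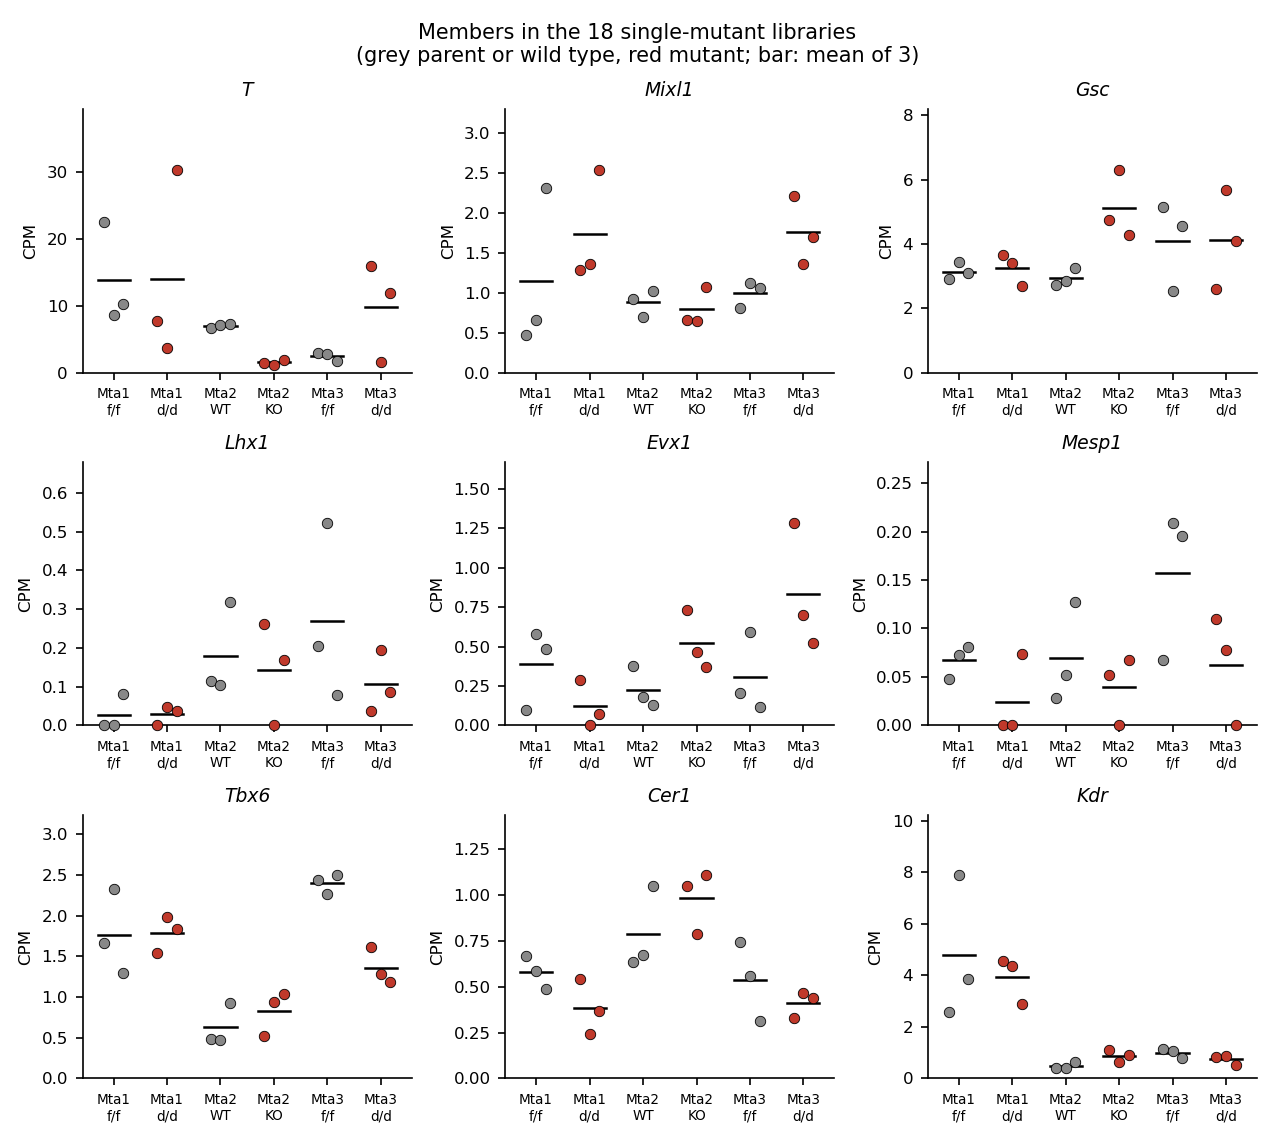
CPM of each member (vertical axes, linear from 0, a scale per gene) in the 18 libraries of the single-mutant set by genotype (horizontal axis; f/f is flox/flox, d/d is del/del). Grey points are the parent or wild type, red points the mutant and bars are means of 3; T in Mta2_KO (1.17 to 1.88 CPM) lies below Mta2_WT (6.62 to 7.26 CPM), and T varies widely within the Mta1 groups and Mta3_del/del.

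In the Mta3_del/del comparison none of 7 members tested was called by edgeR or by DESeq2, against 6.06% of 15522 genes in either direction, and T and Tbx6 had an unadjusted p under 0.05. That share rests on single libraries: 1 gene was called higher and 2 lower without mutant library 1, 251 and 1473 without library 2 and 41 and 205 without library 3, and 102 and 451, 38 and 186 and 44 and 331 without parent libraries 1, 2 and 3. T was at 16, 1.59 and 11.9 CPM in Mta3_del/del and at 2.92, 2.79 and 1.79 CPM in Mta3_flox/flox (log2 fold change 1.90 ± 0.67, adjusted p = 0.0796), and library 2 of the mutant lay below the parent. Without that library T was called (adjusted p = 0.00557). Tbx6 was at 1.62, 1.28 and 1.18 CPM against 2.44, 2.27 and 2.50 CPM without overlap (-0.87 ± 0.29, adjusted p = 0.0659). Mixl1 was at 2.21, 1.36 and 1.70 CPM against 0.814, 1.12 and 1.05 CPM, also without overlap (0.74 ± 0.34, adjusted p = 0.149). In the Mta1_del/del comparison none of 6 members and 0.0% of 14561 genes were called by edgeR (50 genes had an unadjusted p under 0.05), and 0 genes by DESeq2 (73 genes). With the replicate number as a block, which pairs these samples, 0 genes were called and 468 had an unadjusted p under 0.05. Mixl1 was then at 0.76 ± 0.37 (adjusted p = 0.981) and was higher in the mutant in 3 of 3 pairs, and Cer1 was at -0.59 ± 0.41 (adjusted p = 0.981) and lower in 3 of 3. T spread from 3.64 to 30.3 CPM in Mta1_del/del and from 8.6 to 22.5 CPM in Mta1_flox/flox, and Kdr from 2.87 to 4.53 CPM and from 2.57 to 7.87 CPM. Lhx1 and Mesp1 passed the filter in none of the 3 comparisons. Cer1, which had at most 2 counts in the other set, had 5 to 40 counts in each of these 18 libraries. The sets were sequenced and normalised separately, and levels between them were not tested.

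Genes that act beside the members were counted from 3 lists. Of 12 streak signals and factors, 11 were tested between the genotypes labelled 2iL, and 6 were called higher (Wnt3, Wnt3a, Cdx1, Cdx2, Eomes and Snai1) and 2 lower (Cdx4 and Tdgf1), with a median log2 fold change of 1.86 against 0.01 over all genes tested, of which 13.2% were called higher and 7.43% lower. The lines differed: of 12 tested, 8 were called higher in line 1 (median 1.95) and 5 in line 2 (median 0.94), where Cdx2 was not called. Wnt3a was at most 0.155 CPM in Control and 0.237 to 1.97 CPM in Mta123KO, and passed the filter through the Mta123KO libraries. Cdh5, of the mesoderm list below, did so too. A difference was thus built into the testing of such genes, and the counts and medians of the lists alone support nothing. Wnt3, a streak-inducing Wnt ligand, was at 8.74 ± 8.17 CPM (SD, n = 4) in Mta123KO and 0.716 ± 0.303 in Control (log2 fold change 3.63 ± 0.82, edgeR adjusted p = 0.00526), and Cdx1, a caudal homeobox factor, at 10.3 ± 8.18 against 0.790 ± 0.233 (3.72 ± 0.66, adjusted p = 0.00148). Labelled 48h, 10 were tested, Wnt3 (3.46 ± 0.75, adjusted p = 0.00437) and Wnt3a (1.0 ± 0.31, adjusted p = 0.0226) were called higher and Sp5, a target of Wnt signalling, lower, where 14.1% and 5.93% of all genes were. Wnt3a was at 1.47 ± 0.17 in line 1 and 0.32 ± 0.18 (adjusted p = 0.158) in line 2, and higher in line 1 than in line 2 (1.15 ± 0.20, adjusted p = 0.0019), while Wnt3 was called in both lines. Between the labels, 5 of 11 were called higher labelled 48h and 1 lower in Control, and 3 of 10 higher and none lower in Mta123KO. Cdx1 and Sp5 were among those higher in both. In Control, Sp5 (0.0208 to 0.120 CPM labelled 2iL) and Wnt3a passed the filter through the libraries labelled 48h.

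Of 15 genes of endoderm, node and anterior visceral endoderm, 11 were tested in each comparison of the genotypes. Labelled 2iL, Otx2 was called higher in Mta123KO, and Gata6 (-2.68 ± 0.70, edgeR adjusted p = 0.0108) and Gata4, zinc finger factors of endoderm, were called lower. By line 13 were tested, and Otx2 and Gata4 were called in line 2 and not in line 1. Foxa2 and Lefty2 were called higher in line 1 and not in line 2. Dkk1 was called higher in both lines, but was at most 0.111 CPM in Control and passed the filter through the Mta123KO libraries. Gata4, Dkk1, Foxa2 and Lefty2 were called higher in line 1 than in line 2. Gata6 was called lower in both lines, and ran from 0.639 to 7.09 CPM within Control. Labelled 48h, Chrd, Otx2 (2.51 ± 0.49, adjusted p = 0.00243) and Dkk1 (2.45 ± 0.59, adjusted p = 0.00745, with 3.17 in line 1 and 0.93 in line 2, the latter under the fold threshold), of which Chrd and Dkk1 are secreted antagonists, of Bmp and of Wnt respectively, were called higher and Gata4 lower. The medians were 0.31 and 0.99 against 0.01 over all genes. By line labelled 48h, 9 of 12 tested were called higher in line 1 (median 1.57) and 4 of 12 in line 2 (median 0.52). Gata4 was called lower in both lines. Of all genes, 24.9% were called in line 1 and 20.3% in line 2. Of 22 genes of mesoderm and its early derivatives, 19 were tested labelled 2iL, with 9 called higher and 3 lower in Mta123KO (median 1.27), where 13.2% and 7.43% of all genes were. By line the median was 1.31 in line 1 and 0.47 in line 2. Hand1, a factor of lateral mesoderm and trophoblast, had the largest difference of this list (5.03 ± 0.82, adjusted p = 0.000967), from 0.552 ± 0.173 CPM to 17.9 ± 16.1, and Tal1, a factor of blood progenitors, fell by 4.33 on the log2 scale (adjusted p = 8.79e-06), while Tbx20, a cardiac factor, was called higher over both lines (4.25 ± 1.14, adjusted p = 0.0123) with values from 0.388 to 13.8 CPM. Line 1 alone gave 5.19 ± 0.23 for Tbx20 and line 2 0.47 ± 0.34 (adjusted p = 0.277), and labelled 48h line 1 was called higher (2.94 ± 0.26) and line 2 lower (-1.02 ± 0.35, adjusted p = 0.0319) than Control. Labelled 48h, 13 were tested over both lines, and Tek, Pdgfra and Flt1 were called higher and none lower (median 0.30). By line 19 were tested, where 24.9% of all genes were called in line 1 and 20.3% in line 2. Line 1 had 7 called higher (median 0.37), Tek not among them, and Tal1 lower. Line 2 had 5 called higher (median 0.09), Tek among them, and Tbx20, Hand2 and Foxc1 lower. In the Mta2_KO comparison, where 11.3% of all genes were called, 2 of 10 tested streak genes were called higher and 3 lower, 2 of 11 of the endoderm list higher and 2 lower, and 0 of 13 of the mesoderm list higher and 4 lower. In the Mta3_del/del comparison, where 6.06% were, 1 of 10 streak genes was called higher and 0 lower, 2 of 12 of the endoderm list higher and 1 lower, and 1 of 19 of the mesoderm list higher and 2 lower. In the Mta1_del/del comparison 0 of 10, 0 of 11 and 0 of 14 were called by edgeR, as were 0.0% of all genes.

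Markers of other cell types moved with the same comparisons. The summed level of 6 trophectoderm markers was 16.1 to 19.7 CPM in Control labelled 2iL and 99.9 to 442.0 CPM in Mta123KO, and 72.3 to 91.9 against 166.1 to 764.4 CPM labelled 48h, with all 6 and 4 of 6 called higher. Of these, Cdx2 is also in the list of streak genes. By line, 6 were called higher in line 1 and 5 in line 2 labelled 2iL, and 5 and 4 labelled 48h, with Cdx2 not called in line 2 under either label. Set against line 2, line 1 had 5 of the 6 called higher labelled 2iL and 4 labelled 48h. Krt8 (97.7 ± 78.3 CPM) and Krt18 (95.1 ± 78.9) were the largest parts of the sum in Mta123KO labelled 2iL. Labelled 48h, Tfap2c made up most of the Control sum, at 74.6 ± 9.98 CPM. In Mta123KO labelled 48h Tfap2c was at 49.8 ± 11.8 CPM and was not called, and Krt8 (202.9 ± 156.4) and Krt18 (197.9 ± 160.9) were the largest parts. The 9 markers of primitive and visceral endoderm summed to 12.6 to 32.6 CPM in Control labelled 2iL and 23.5 to 32.9 CPM in Mta123KO, with Ttr at 3 or fewer counts over each of these groups, and to 68.8 to 106.0 against 28.5 to 66.3 CPM labelled 48h. Labelled 2iL, 4 of them were called higher and 2 lower. Labelled 48h, Amn and Dab2 were called higher and Gata4 and Lama1 lower, with a median log2 fold change of 0.99. Lama1 made up most of the Control sum labelled 48h, at 81.77 ± 18.77 CPM against 26.15 ± 19.13 in Mta123KO. Dab2 was at 0.895 ± 0.264 CPM against 14.7 ± 1.61. The 5 endothelial and blood markers, the types in which Kdr is known, summed to 41.2 to 56.1 CPM in Control and 49.8 to 92.5 CPM in Mta123KO labelled 2iL. There Tek, Gata1 and Cdh5 were called higher and Tal1 lower. Labelled 48h the 5 markers summed to 87.5 to 111.3 against 49.6 to 99.7 CPM, with Tek and Gata1 called higher and Cdh5 at 3 or fewer counts over Control. Most of the Control sums came from Pecam1 and Gata1. In Control, Tek was 6.23 to 10.2 CPM labelled 2iL and 8.83 to 12.7 CPM labelled 48h. Tal1 was at most 2.26 CPM and Cdh5 at most 0.155 CPM in Control. Pecam1 was called higher in Control labelled 48h than labelled 2iL. Of 7 naive ES cell markers 3 were called higher and none lower in Mta123KO labelled 2iL and 1 was called lower labelled 48h, and of 5 formative epiblast markers, which were all lower in Control labelled 48h than labelled 2iL, 1 was called higher and 3 lower labelled 2iL and 2 higher labelled 48h. Neural markers (4 genes) summed to 75.1 to 96.9 against 32.8 to 42.9 CPM labelled 2iL and 24.6 to 29.1 against 31.2 to 39.5 CPM labelled 48h. In the Mta2_KO comparison Tfap2c was called higher and Krt18, Cdx2 and Krt8 lower among the trophectoderm markers, 2 neural markers were called higher and 2 lower, and 2 of primitive and visceral endoderm higher and 3 lower. Labelled 2iL, Cdh5 (at most 0.155 CPM in Control), Gata3 (at most 0.228) and Afp (at most 0.0799) passed the filter through the Mta123KO libraries. The part of these cell types in the differences of the members was not tested.

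Across the 16 libraries, the genes whose centred log2 CPM lay closest to a member's were sought among 17064 other genes with a mean of at least 1 CPM. For T these were Gm11670 and Fzd10, with a mean absolute difference of 0.369 and 0.383 log2 units. For Tbx6 they were Tprgl (0.121) and Hadhb (0.124), and for Kdr Zfp536 (0.473) and Zbtb32 (0.498). A member that varies little, as Tbx6 did, lies close to any gene that varies little.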

How the data were processed

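The authors removed adaptors with Trim Galore!, aligned reads to GRCm38/mm10 with Tophat2 and assigned them to Ensembl genes with featureCounts, and the deposited values are raw counts per gene, 1 library per file. Libraries were prepared with stranded kits; the strand setting of the counting is not given in the sources used here. Groups were taken from the sample labels. Symbols, coordinates and exon lengths came from GENCODE vM21 on GRCm38, which matched 48349 of 48709 and 21852 of 22018 identifiers.

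The tests used filterByExpr, TMM and the quasi-likelihood F test of edgeR (version 4.0.16, under R 4.3.3, with limma at 3.58.1) on the groups compared, with each Mta123KO line as a group in the line comparisons. SE is the absolute log2 fold change over the square root of F. Replicates vary far beyond counting noise (chi-square per degree of freedom 4.41 to 214.8 over 42 pairs), and no libraries were merged. CPM use TMM within a set. Same-numbered libraries deviated together between culture labels (r at least 0.347 in Control, 0.641 in Mta123KO; same line) and in the Mta1 comparison (at least 0.524), where the numbers pair the samples. DESeq2 1.42.0 and other settings were alternatives. On simulated counts the procedure was tested before use. All 9 members were named; from each list, the 3 called genes with the largest absolute log2 fold change between Mta123KO and Control were eligible. The members, lists and tests were chosen with earlier results of these data known. Python 3.11.15, numpy 2.4.6 and pandas 2.3.3 were used. The genes closest to Gsc are not reported here.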

Additional observations from a re-analysis of the deposited data

Results flagged for a closer look

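Within a group of 4 libraries, 1 library stood apart from the other 3 for 2 of the 35 member and group combinations that could be examined, and chance gives about 1 in 20. Gsc was at 2.99 CPM in Control labelled 48h library 2_1, the lowest of its group. Cer1 was at 0.0447 CPM, from 2 counts, in Mta123KO labelled 48h library 2_1 and at 0 in the other 3.

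The difference between the culture labels itself differed between the genotypes for Mixl1 (log2 interaction 1.08, edgeR adjusted p = 0.0315) and for Gsc (-2.76, adjusted p = 0.045). The Mta123KO lines differed from each other in Kdr under both labels (log2 fold change of line 1 over line 2 -1.72 labelled 2iL and -1.06 labelled 48h, edgeR adjusted p = 0.0411 and 0.0342) and, labelled 48h, in T (1.2, adjusted p = 0.00955) and Gsc (-1.10, adjusted p = 0.0204).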

How the results depend on the processing

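Of 282 alternative values of members that were called, 235 kept direction and call, 47 lost the call and 0 reversed; 35 of the lost calls came from leaving out 1 library. The number of members called went from 2 to 3 with adjusted p alone between the labels in each genotype, for the interaction and for line 2 labelled 48h, with spike-in scaling between the labels in Control and for line 2 labelled 48h, for that line also without the filter or TMM, and with lines summed between the labels in Control. It moved by more than 1.5 times in the following cases. With adjusted p alone it was 2 between Mta123KO and Control labelled 2iL and labelled 48h (1 each with the fold threshold), 2 and 3 for line 1 labelled 2iL and 48h (1 each) and 2 for Mta2_KO (1). With the libraries of a line summed, in designs with fewer samples, it was 0 between the genotypes labelled 2iL (1). It was also 0 between the labels in Mta123KO (2) and 0 for the interaction (2). In that setting 0 of 24445 genes were called between the labels in Mta123KO. Between the labels in Control, 2476 genes were called higher and 3157 lower. Without the low-count filter it was 4 between the labels in Control (2), 1 for the interaction, 2 for each Mta123KO line labelled 2iL (1) and 1 for Mta3_del/del (0). In 1 fit of all libraries of a set it was 4 between the labels in Control, 1 between the lines labelled 48h (3) and 0 for Mta2_KO. Spike-in scaling gave 1 for the interaction and 2 for line 1 labelled 2iL. DESeq2 gave 0 for line 1 labelled 2iL (T, adjusted p = 0.0627) and 0 between the lines labelled 2iL (Kdr, adjusted p = 0.213). Where no value is given, the cause was not tested.

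Leaving out 1 library, which leaves some lines with 1 library assumed to vary like the other groups, gave 0 to 1 members called between the genotypes labelled 2iL and 1 to 3 labelled 48h, 2 to 3 between the labels in each genotype, 0 to 2 for the interaction, 0 to 2 and 1 to 2 for line 1, 1 to 1 and 2 to 3 for line 2, 0 to 1 and 0 to 3 between the lines, 0 to 0 for Mta1_del/del, 1 to 2 for Mta2_KO and 0 to 1 for Mta3_del/del. With spike-in scaling 3286 genes were called higher and 2520 lower in line 1 labelled 48h in place of 3802 and 1860, 2559 and 2015 in line 2 in place of 3100 and 1499, 2152 and 717 between the lines labelled 2iL in place of 1562 and 1084, and 1252 and 1554 for the interaction in place of 1759 and 1234, with medians of -0.17, -0.19, 0.20 and -0.22.

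The replicate block called 2 members in Mta2_KO in place of 1, adding Evx1 (adjusted p = 0.0464), where the samples share only a number (r -0.205 to 0.377); it ended no call of a member in any comparison. The numbers did not pair Mta123KO with Control (r -0.286 to 0.042) or Mta3_del/del with its parent (-0.062 to 0.362). Counts of a few reads limit Lhx1, Evx1, Mesp1 and Cer1.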

Other observations

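The parental and wild-type lines of the single-mutant set differed from each other in several members before any deletion. T was at 8.6 to 22.5 CPM in Mta1_flox/flox, 6.62 to 7.26 CPM in Mta2_WT and 1.79 to 2.92 CPM in Mta3_flox/flox, all labelled 2iL. Kdr was at 2.57 to 7.87, 0.403 to 0.637 and 0.780 to 1.15 CPM, and Tbx6 at 1.3 to 2.33, 0.468 to 0.924 and 2.27 to 2.50 CPM in the same order. These differences were not tested. Gsc was at 2.55 to 5.16 CPM in all 9 of these libraries, beside 2.99 to 5.03 CPM in Control labelled 48h and at most 0.145 CPM in Control labelled 2iL, in a set that was normalised separately. The naive ES cell markers summed to 3582 to 6263 CPM in the 9 libraries, beside 4194 to 4545 and 727.3 to 781.1 CPM.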
